A study of Mus musculus with 9 samples.

Results

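Dlk1, Meg3, Rian and Mirg on chromosome 12 and Igf2 and H19 on chromosome 7 are imprinted genes, and their accessible chromatin was followed through the conversion of mouse fibroblasts to induced pluripotent stem cells (iPSCs). A region is a stretch that the peak caller MACS2 called accessible in at least 1 library, joined across libraries where calls shared at least 1 bp. Every region within 20 kb of the stretch from Dlk1 to Mirg or from H19 to Igf2 was taken. These windows were chr12:110671033-111007665 (337 kb) and chr7:149741434-149872721 (131 kb) in the mm9 build. They held 49 and 52 regions, in all 101 of 211273 in the genome, and the 6 genes are among 37310 in the annotation (GENCODE vM1).

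Accessibility was measured by ATAC-Seq, in which a transposase inserts sequencing adapters where DNA is exposed, in 9 libraries with 1 library per condition. All cells came from mouse embryonic fibroblasts (MEFs) of mid-gestation embryos that carry an IRES-EGFP cassette after the stop codon of Oct4, and all but the D0 MEFs were infected with pMXs retroviruses for Sox2, Klf4, Oct4 and c-Myc. The time course comprised D0 (uninfected MEFs), D3 (day 3, unsorted), D6T- and D9T- (days 6 and 9, sorted as Thy-1-), D12S+ and D16S+ (days 12 and 16, sorted as SSEA-1+) and iPSCs (labelled fully reprogrammed). The D6 siH3.3 and D6 siNT libraries came from day 6 Thy-1- cells given siRNA against the histone variant H3.3 or a non-targeting siRNA. Per the paper, H3.3 was depleted transiently, at the beginning of reprogramming. Thy-1 is a fibroblast surface protein lost early in reprogramming and SSEA-1 a surface glycan gained later, so that sorting and time changed together and cannot be told apart.

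Imprinted genes are expressed mainly from the maternal or the paternal chromosome, according to DNA methylation set in the germ line at an imprinting control region. At the chromosome 12 cluster this element, the IG-DMR, lies between Dlk1 and Meg3: where it is unmethylated, on the maternal chromosome, the non-coding RNAs Meg3, Rian and Mirg are expressed, and Dlk1, which encodes a transmembrane inhibitor of adipogenesis, is expressed from the paternal one. At the chromosome 7 cluster the control region lies just upstream of H19. On the maternal chromosome it is unmethylated and binds the insulator protein CTCF, which keeps shared enhancers beyond H19 from the growth factor gene Igf2, while the methylated paternal copy leaves Igf2 active and the non-coding RNA H19 silent. In mouse iPSCs the chromosome 12 cluster is known for frequent silencing of Meg3. The peak files combine both chromosomes, so parental copies could not be told apart.

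The sequences below are 300 bp windows around the strongest summit of the regions on which the results turn, read from the plus strand of mm9. Capitals mark, on either strand, matches to TGCCGC (the hexamer bound by ZFP57, which protects methylated imprints), CGNGGNGGC (a core of the CTCF motif), ATGCAAAT (the octamer bound by Oct4) and TGANTCA (the AP-1 site). A match is letters only and no evidence of binding. The CTCF pattern was chosen as part of the CTCF sites of the H19 control region. Of the 5 regions in the IG-DMR window, all called in D12S+ or D16S+ and in no other library, 3 are shown: those at 13.4 and 11.8 kb had the most tags, and that at 12.7 kb held the most matches to TGCCGC.
IG-DMR region 13.4 kb before the Meg3 start, window chr12:110765649-110765948: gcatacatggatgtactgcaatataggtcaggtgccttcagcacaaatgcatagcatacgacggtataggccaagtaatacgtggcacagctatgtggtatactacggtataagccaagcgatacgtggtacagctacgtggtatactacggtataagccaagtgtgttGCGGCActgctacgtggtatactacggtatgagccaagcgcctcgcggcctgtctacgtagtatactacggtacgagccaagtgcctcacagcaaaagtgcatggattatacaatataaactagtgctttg
IG-DMR region 12.7 kb before the Meg3 start, window chr12:110766395-110766694: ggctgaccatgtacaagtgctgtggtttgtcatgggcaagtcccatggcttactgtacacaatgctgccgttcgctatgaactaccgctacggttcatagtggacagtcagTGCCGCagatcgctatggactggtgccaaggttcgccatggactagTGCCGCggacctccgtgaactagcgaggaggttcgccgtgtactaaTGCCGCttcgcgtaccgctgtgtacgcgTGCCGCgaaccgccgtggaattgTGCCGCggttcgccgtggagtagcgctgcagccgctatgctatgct
IG-DMR region 11.8 kb before the Meg3 start, window chr12:110767263-110767562: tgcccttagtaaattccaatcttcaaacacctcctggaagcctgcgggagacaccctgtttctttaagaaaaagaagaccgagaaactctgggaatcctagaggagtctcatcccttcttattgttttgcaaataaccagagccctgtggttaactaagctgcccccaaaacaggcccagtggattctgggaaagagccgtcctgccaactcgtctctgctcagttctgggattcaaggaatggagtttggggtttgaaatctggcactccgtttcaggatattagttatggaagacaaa

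The Meg3 region is the strongest at the gene, the region past Mirg is the only member called in all 9 libraries, the H19 control region carries a CTCF core match, and the region between H19 and Igf2 had the highest value of its locus.
Meg3 region 2.06 kb past the start, window chr12:110781126-110781425: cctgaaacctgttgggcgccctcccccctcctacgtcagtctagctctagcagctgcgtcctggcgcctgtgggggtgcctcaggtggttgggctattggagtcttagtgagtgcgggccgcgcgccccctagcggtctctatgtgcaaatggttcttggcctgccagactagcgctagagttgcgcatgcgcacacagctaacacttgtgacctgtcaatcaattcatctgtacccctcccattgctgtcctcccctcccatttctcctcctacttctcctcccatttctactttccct
Region just past the end of Mirg, window chr12:110987991-110988290: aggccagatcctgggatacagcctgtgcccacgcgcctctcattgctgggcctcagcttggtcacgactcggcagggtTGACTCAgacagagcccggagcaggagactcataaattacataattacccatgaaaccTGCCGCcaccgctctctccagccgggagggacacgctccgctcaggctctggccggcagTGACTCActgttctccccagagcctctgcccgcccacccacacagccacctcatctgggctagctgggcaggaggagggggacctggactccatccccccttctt
H19 control region, window chr7:149766206-149766505: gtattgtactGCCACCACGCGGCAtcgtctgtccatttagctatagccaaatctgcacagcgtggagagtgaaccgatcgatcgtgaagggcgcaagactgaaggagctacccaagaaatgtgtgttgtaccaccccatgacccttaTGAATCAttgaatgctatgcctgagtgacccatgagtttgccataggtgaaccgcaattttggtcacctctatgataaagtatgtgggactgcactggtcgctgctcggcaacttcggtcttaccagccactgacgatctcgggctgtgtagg
Region between H19 and Igf2, window chr7:149797038-149797337: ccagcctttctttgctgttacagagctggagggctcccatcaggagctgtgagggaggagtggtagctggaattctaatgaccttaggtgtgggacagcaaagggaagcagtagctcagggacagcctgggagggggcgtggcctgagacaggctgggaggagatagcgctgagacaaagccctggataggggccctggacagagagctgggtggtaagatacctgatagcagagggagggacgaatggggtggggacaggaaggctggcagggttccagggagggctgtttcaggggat

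Values are the highest pileup in a region, the number of overlapping tags at its summit, per 1000000 total tags of the library (CPM). D9T- was the shallowest library with 13213117 tags and D0 the deepest with 31714845. A summit had to reach between 7 and 11 tags to be called, depending on the library, which is 0.331 to 0.530 CPM. A region that was not called is taken to lie below that level, although its pileup was not measured, and is not shown to be closed. Ratios given as at least or at most rest on this assumption. Intervals are exact 95% Poisson intervals (for ratios, exact conditional binomial intervals). Where a ratio is a bound, the lowest called pileup of the library without a call was entered as if it had been counted. The interval of such a bound is therefore nominal, since a limit carries no counting error. A summit is the maximum of its region, and the intervals cover counting error only. The spread between cultures is not given by 1 library per condition, so that no test was made. CPM also differed genome-wide: over the 12409 regions called in all 9 libraries the median was 0.883 CPM at D0, 1.98 at D3, 3.41 in D6T-, 1.36 in D9T-, 2.10 in D12S+, 1.98 in D16S+, 1.05 in iPSCs, 1.29 with siH3.3 and 1.19 with siNT. Ratios between libraries are given on CPM and again relative to the ratio of these medians.

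Across the time course both loci ended with fewer called regions than they began with, and at the Igf2-H19 locus most were no longer called by D6. Of the 49 Dlk1-Mirg regions 13 were called at D0 (26.5%), 28 at D3 (57.1%), 22 in D6T- (44.9%), 4 in D9T- (8.16%), 11 in D12S+ (22.4%), 12 in D16S+ (24.5%) and 5 in iPSCs (10.2%). Of the 52 Igf2-H19 regions 39 were called at D0 (75.0%), 17 at D3 (32.7%), 5 in D6T- (9.62%), 1 in D9T- (1.92%), 3 in D12S+ (5.77%), 3 in D16S+ (5.77%) and 4 in iPSCs (7.69%). Of all regions in the genome 36.4% were called at D0, 48.4% at D3, 61.6% in D6T-, 16.0% in D9T-, 25.1% in D12S+, 22.4% in D16S+ and 27.0% in iPSCs. The Igf2-H19 share was above the genome's at D0 and below it in the other 6 time points, and the Dlk1-Mirg share was above it at D3 and D16S+. Since 30 of the 52 regions were called at D0 alone, pooling regions over libraries raises this D0 share and lowers the others. Tiles of the same width held a genome-wide median of 2.00 regions at D0, 3.00 at D3 and 5.00 in D6T-. The median was 1.00 in D9T-, 2.00 in D12S+, and 1.00 in D16S+ and iPSCs. By these medians the Igf2-H19 count was below the genome's in no time point.

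**Figure D1:**
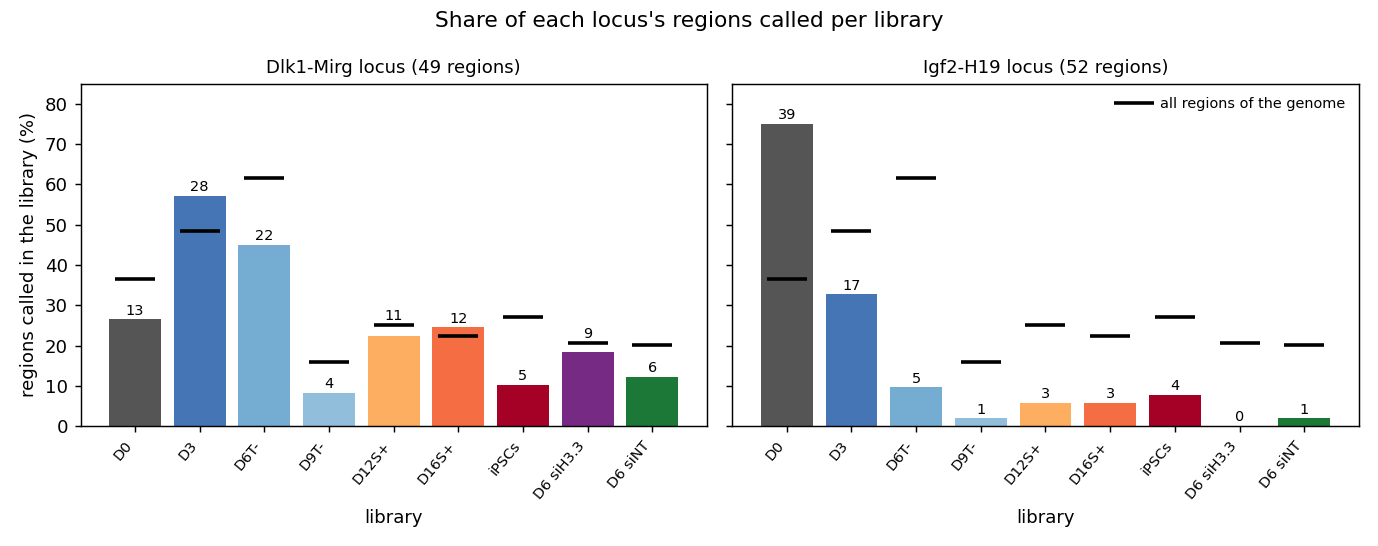
Percentage of the 49 Dlk1-Mirg and 52 Igf2-H19 regions called in each of the 9 libraries (bars, with the number of regions above), beside the percentage of all 211273 regions called in that library (black lines). The D0 bar of the Igf2-H19 locus, 75.0%, stands above its line at 36.4%, and every other bar of that locus stands below its line. Of its 52 regions 30 were called at D0 alone, which raises the D0 bar and lowers the others.

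A region called at D0 and in no other library was the most common pattern at the Igf2-H19 locus, with 30 of 52 regions (57.7%), against 4 of 49 (8.16%) at the Dlk1-Mirg locus and 9.68% of the genome's regions. These 30 regions were weak, with 11 to 28 tags (median 14.0, or 0.441 CPM), and their median stood at the 26.4th percentile of D0 regions. Only 5 of the 30 exceeded 0.530 CPM, the highest of the other libraries' lowest called values, so depth limits what their absence elsewhere can show. The D3 library, with 30233396 tags, was close to D0 in depth and called 6 of the 39 D0 regions. The same share over all D0 regions of the genome was not computed, so this count only describes the locus. The density at D0 was high for the genome: 73 of 20213 tiles of the same width (0.361%) held at least as many D0 regions. It did not end at the window, since the equally wide stretch on the side of H19 held 32 D0 regions, while that on the side of Igf2 held 1. Limited to equal numbers of regions per library, the strongest by q-value, the D0 count was 5, against 0 to 3 in the other libraries.

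**Figure D2:**
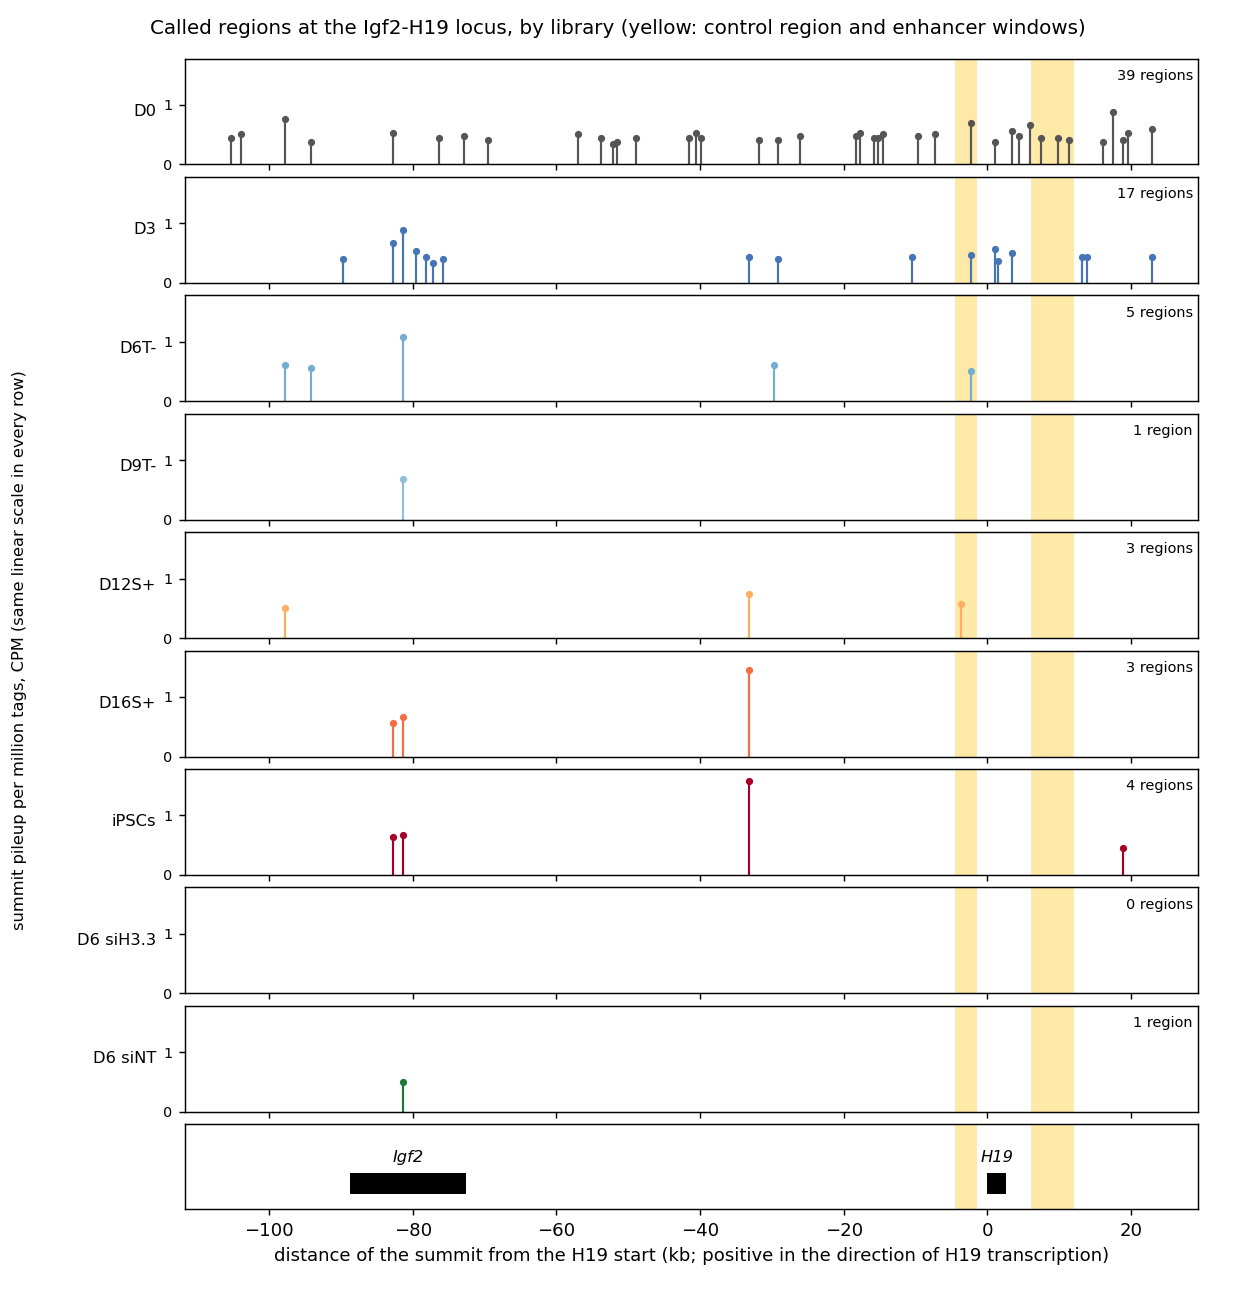
Summit pileup in CPM (vertical axis, linear) of each called region against its distance from the H19 start in kb (horizontal axis), with 1 row per library, gene bodies as black bars and the control region and enhancer windows in yellow. The D0 row holds 39 regions along the whole locus, and the region 33.1 kb before H19 stands highest in D16S+ and iPSCs.

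The window searched for the IG-DMR, the control element of the chromosome 12 cluster, had calls in SSEA-1+ cells alone. No file gives the position of the control elements or enhancers, and these windows were set from textbook distances to the Meg3 and H19 starts, so that a call inside one is not shown to lie on the element itself. The IG-DMR window lay 16 to 8 kb before the Meg3 start and held 5 regions, of which D16S+ called 5 and D12S+ called 3. The region at chr12:110765648-110765998, 13.4 kb before Meg3, had 0.908 CPM (95% interval 0.519 to 1.48, 16 tags) in D12S+ and 0.850 CPM (0.504 to 1.34, 18 tags) in D16S+. At chr12:110767250-110767603, 11.8 kb before Meg3, the values were 1.02 CPM (0.606 to 1.62, 18 tags) and 0.897 CPM (0.540 to 1.40, 19 tags). The SSEA-1+ libraries thus overlapped closely at both regions, and the other 7 libraries, iPSCs included, called neither. Another region 10.2 kb before Meg3 was weaker, with 11 tags in D12S+ and 12 in D16S+, and the regions at 15.1 and 12.7 kb had 10 and 9 tags in D16S+ alone.

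Regions called in both SSEA-1+ libraries and in no other made up 0.615% of the genome's regions, and 3 of the 49 Dlk1-Mirg regions (6.12%), all of them in the IG-DMR window. Against the lowest value that could be called at D0, the D16S+ level was at least 2.45-fold higher (log2 1.29) 13.4 kb before Meg3 and at least 2.59-fold higher (log2 1.37) at 11.8 kb. With the D0 limit entered as if counted, the nominal intervals of these bounds were 1.10 to 5.74 and 1.17 to 6.02. Relative to the genome-wide shift they were log2 0.13 and 0.20, so that on this scale the measured levels lay close to the D0 detection limit. In a comparison chosen after the values were seen, iPSCs were at most 0.443 (0.183 to 1.01) and 0.419 (0.174 to 0.948) times the D16S+ level on CPM, and at most 0.833 and 0.789 times relative to the genome-wide shift.

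The sequence of the IG-DMR window carried the ZFP57 hexamer repeatedly. The window held 10 matches to TGCCGC, 6 of them inside called regions, and 5 of these lay in the 248 bp region 12.7 kb before Meg3 whose sequence is shown above. Across the genome 5.92% of the 300 bp windows around summits held at least 1 match, a share that cannot be set against a count over 8001 bp. In 300 bp windows around their own summits, the regions at 13.4 and 12.7 kb held 1 and 5 matches. Those at 15.1, 11.8 and 10.2 kb held none. No CTCF core or octamer match lay in the IG-DMR window, and its 2 AP-1 matches lay outside the called regions. The windows at 13.4 and 12.7 kb were rich in CpG, with ratios of observed to predicted CpG of 1.02 and 1.13 against a genome median of 0.208, while that at 11.8 kb had 0.306.

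**Figure D3:**
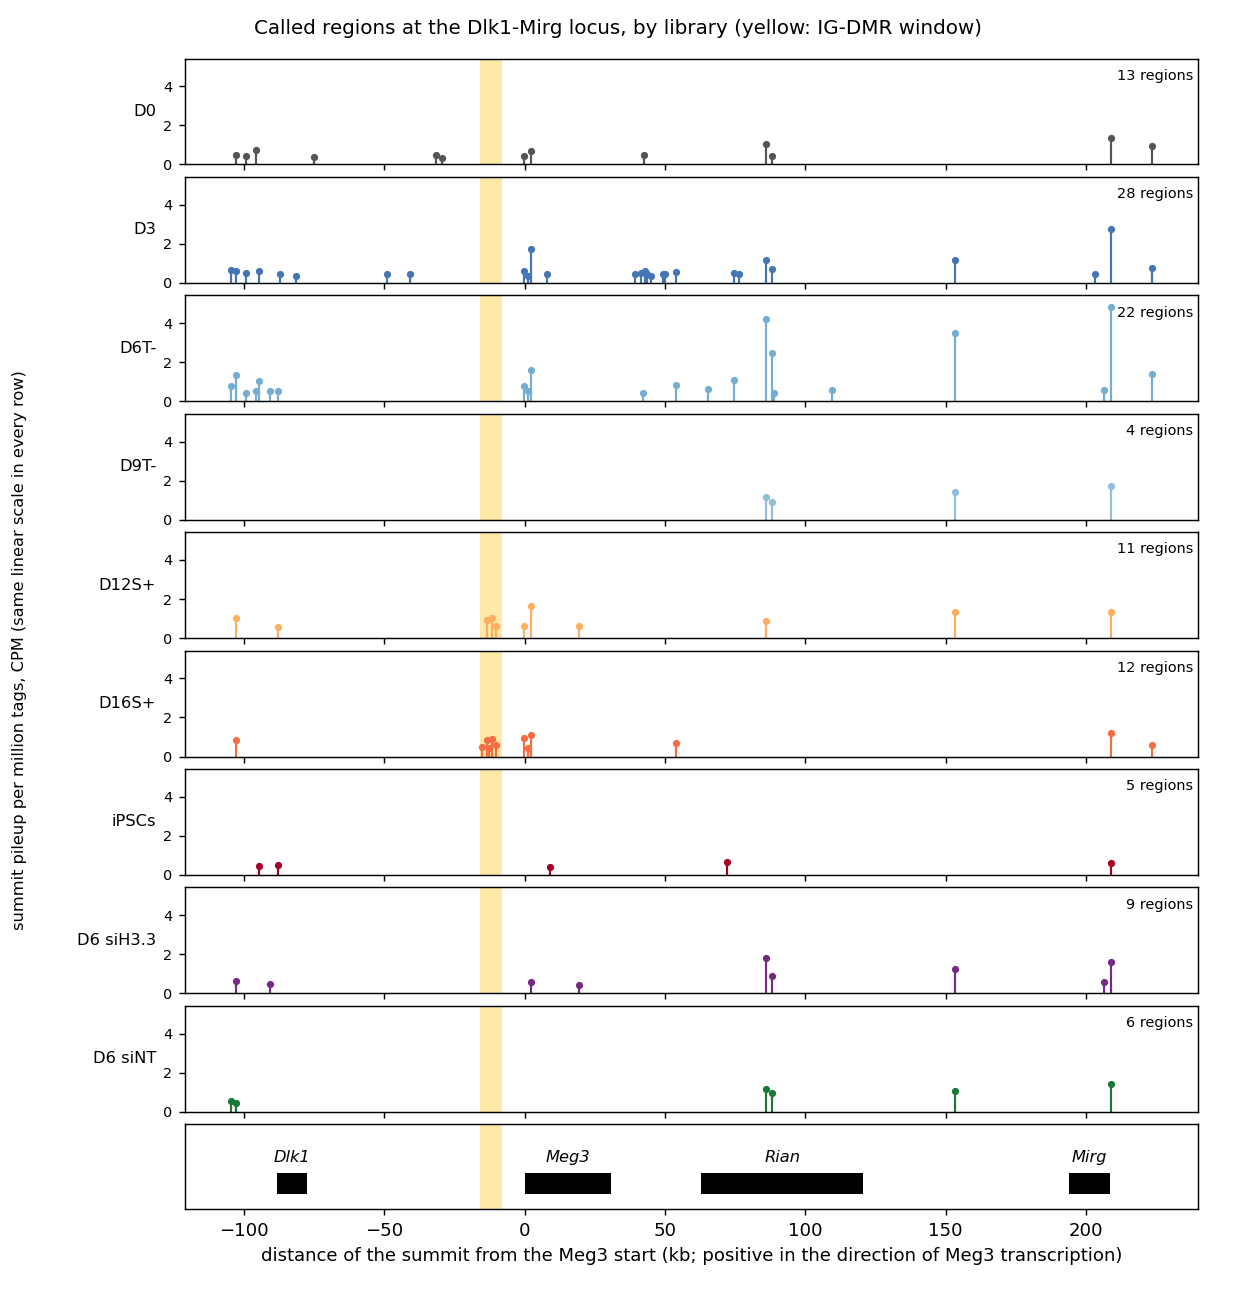
Summit pileup in CPM (vertical axis, linear) of each called region against its distance from the Meg3 start in kb (horizontal axis), with 1 row per library, gene bodies as black bars and the IG-DMR window in yellow. Calls inside the yellow window appear in the D12S+ and D16S+ rows alone, and the D6T- row holds the highest values, up to 4.82 CPM past Mirg.

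Meg3, a non-coding RNA made from the maternal chromosome, had regions at its start and in its gene body that were called from D0 to D16S+, D9T- excepted, but not in iPSCs. At the start (chr12:110778860-110779431) the value was 0.410 CPM at D0, 0.628 at D3, 0.795 in D6T-, 0.625 in D12S+ and 0.945 in D16S+ (13, 19, 17, 11 and 20 tags). The exonic region 2.06 kb further on (chr12:110780904-110782103) was stronger, with 0.694 CPM (0.435 to 1.05) at D0, 1.72 (1.28 to 2.26) at D3, 1.59 (1.10 to 2.22) in D6T-, 1.65 (1.10 to 2.36) in D12S+, 1.09 (0.689 to 1.63) in D16S+ and 0.589 (0.294 to 1.05) with siH3.3. The D9T-, iPSC and siNT libraries called neither region. At the exonic region D3 exceeded D0 2.48-fold (95% interval 1.48 to 4.29), or 1.10-fold relative to the genome-wide shift. The iPSC level was at most 0.542 times that of D0 (0.455 relative to the shift), with a counting interval on CPM that reached from 0.229 to 1.19, and at most 0.346 times that of D16S+ (0.652 relative to the shift). A further Meg3 region, in an intron 8.91 kb past the start, was called in iPSCs alone with 11 tags, close to the lowest called value.

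Dlk1, the protein-coding gene at the other end of the IG-DMR, had 5 regions at or near its start or in its exons, each called in 1 to 3 libraries and all with at most 13 tags. The exonic region whose summit lay 0.329 kb past the start (chr12:110691232-110691669) was called in D6T- with 0.514 CPM (0.257 to 0.920, 11 tags), in D12S+ with 0.568 CPM (0.272 to 1.04, 10 tags) and in iPSCs with 0.489 CPM (0.260 to 0.836, 13 tags). These values overlapped and lay near the detection limit. D3 alone called exonic regions 0.942 and 6.79 kb past the start (13 and 11 tags), siH3.3 alone a region 2.78 kb before it (9 tags) and D6T- alone a region 2.44 kb before it (11 tags). D0, D9T-, D16S+ and siNT called none of the 5. In iPSCs the region at 0.329 kb was 1 of 5 called at the locus, and relative to the genome-wide shift it was at least 1.18-fold above the D0 limit. A region 14.9 kb before Dlk1 was called in 7 libraries, between 0.459 CPM (siNT) and 1.36 CPM (D6T-), but not in D9T- or iPSCs.

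Rian and Mirg, the non-coding RNAs that host the snoRNA and microRNA clusters further along, had no region within 3 kb upstream of any annotated start in any library. Their strongest regions lay inside and beyond the genes, with a maximum in D6T-. The exonic Rian region 23.2 kb past the start (chr12:110865113-110865578) had 33 tags at D0, 36 at D3, 90 in D6T-, 15 in D9T-, 15 in D12S+, 34 with siH3.3 and 26 with siNT. D6T- was 4.04-fold above D0 (2.69 to 6.22), which became 1.05-fold relative to the genome-wide shift. Neither D16S+ nor iPSCs called it, and their levels were at most 0.409 and 0.362 times that of D0 (0.182 and 0.303 relative to the shift). A neighbouring region 25.1 kb past the Rian start was also highest in D6T-, with 53 tags against 14 at D0, and in the time course was last called in D9T-.

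An intergenic region between Rian and Mirg, 40.6 kb before the Mirg start (chr12:110932281-110933498), was not called at D0 and then had 36 tags at D3, 75 in D6T-, 19 in D9T- and 24 in D12S+, or 1.19, 3.51, 1.44 and 1.36 CPM. It was again absent from the calls in D16S+ and iPSCs. D6T- was at least 10.1-fold above the D0 limit, and at least 2.62-fold relative to the genome-wide shift, the largest relative difference from D0 in D6T- among the named Dlk1-Mirg regions. With siH3.3 and siNT it had 23 tags each.

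The region just past the end of Mirg (chr12:110987826-110988523) was called in all 9 libraries, as were 5.87% of the genome's regions. It had 1.36 CPM (0.981 to 1.83) at D0, 2.75 (2.19 to 3.40) at D3, 4.82 (3.93 to 5.84) in D6T-, 1.74 (1.10 to 2.61) in D9T-, 1.36 (0.873 to 2.03) in D12S+, 1.18 (0.764 to 1.74) in D16S+ and 0.602 (0.344 to 0.978) in iPSCs. On CPM D6T- was highest and iPSCs were lowest, and the intervals of these libraries did not overlap that of D0. The D6T- excess of 3.55-fold (log2 1.83, 2.47 to 5.19) turned to a log2 value of -0.12 relative to the genome-wide shift. The iPSC level was 0.444 times that of D0 (0.233 to 0.804), and 0.372 times relative to the shift. From D0 to D9T- the region stood 1.28 to 1.54 times above the median of the regions called everywhere, and in the SSEA-1+ and iPSC libraries it stood at 0.571 to 0.649 times that median.

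**Figure D4:**
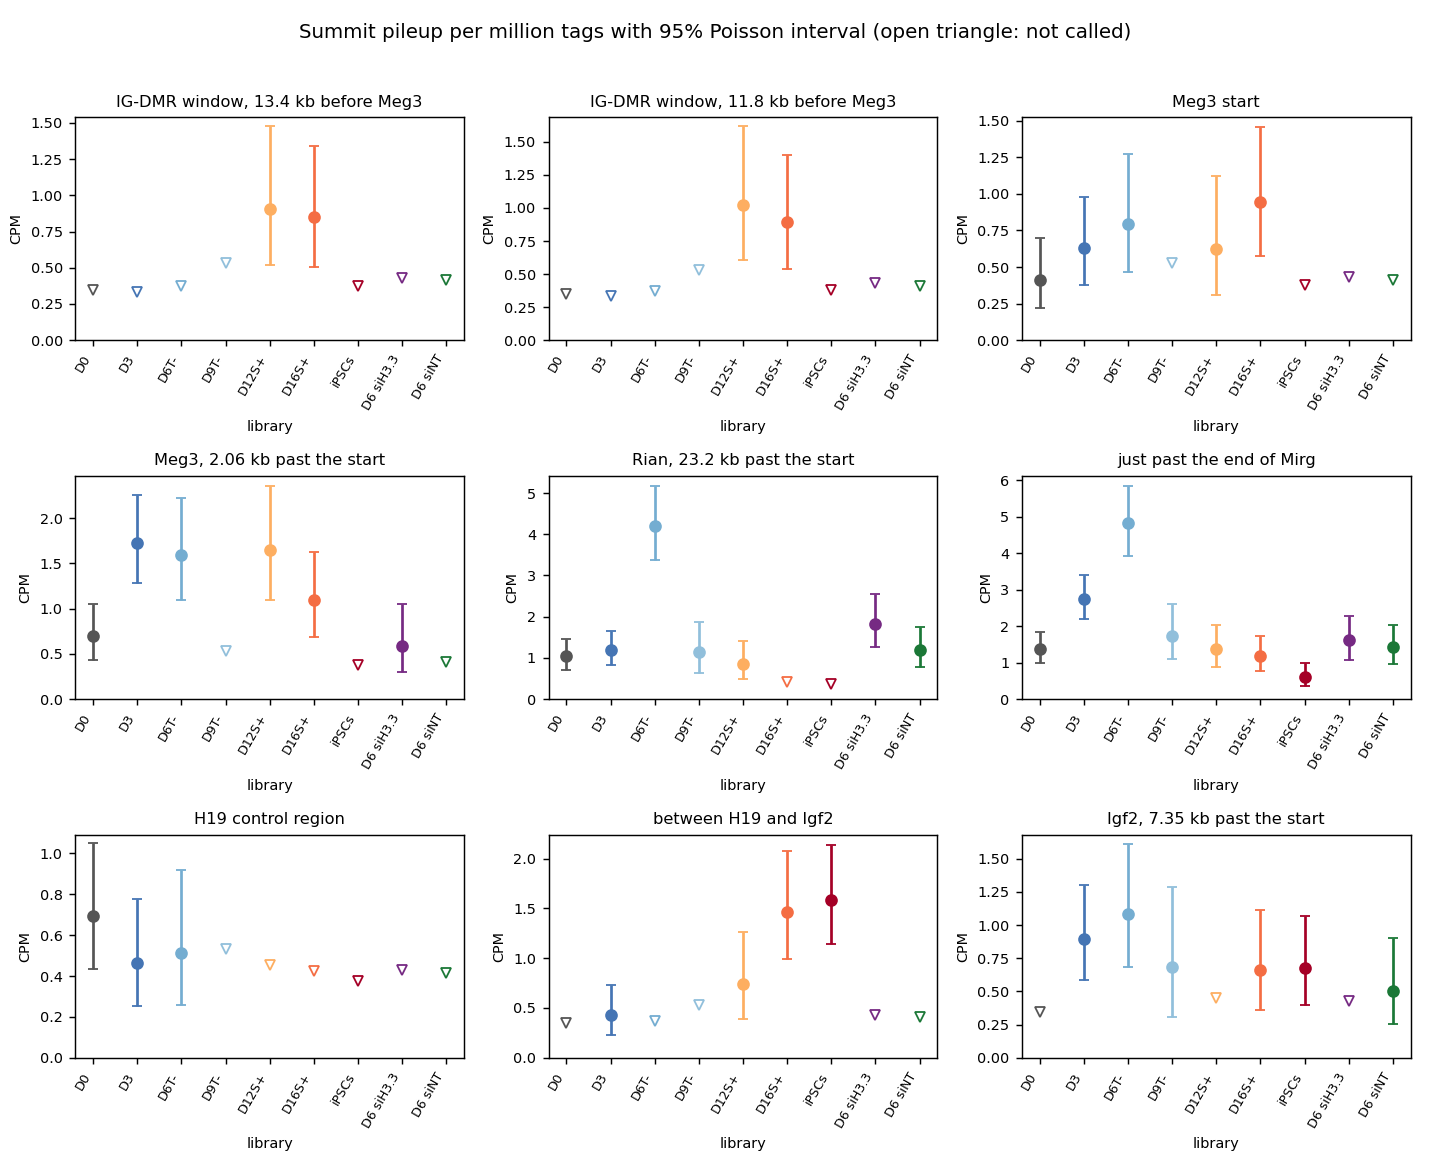
Summit pileup in CPM (vertical axes, linear, each with its own scale) of 9 named regions in the 9 libraries (horizontal axes), where filled points carry exact 95% Poisson intervals and open triangles mark the lowest called value of a library that did not call the region. The IG-DMR panels have filled points in D12S+ and D16S+ alone, and the panel between H19 and Igf2 is highest in iPSCs at 1.58 CPM.

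MicroRNA hairpins lie along the same stretch, and 5 of the 58 annotated in both windows were overlapped by a region. Between Meg3 and Rian D3 called 8 of 10 regions, with no more than 2 in any other library, while D3 called 48.4% of all regions in the genome. Of these 10 regions 9 were called in 1 library only, so that pooling regions over libraries raises the D3 count and lowers the others. Mir493 and Mir337 lay under regions called at D3 alone, and Mir432, which sits antisense to the retrotransposon-like gene Rtl1, under a region with 17 tags at D3, 18 in D6T- and 15 in D16S+. The same region reached 4 bp into the hairpin of Mir434. Mir675, processed from the H19 transcript, lay under a region with 12 tags at D0 and 17 at D3. Accessibility over a hairpin does not measure the microRNA. The mature sequences from RefSeq (GRCm38.p6), with the seed (bases 2 to 8) in capitals, are given for the 4 hairpins that lay wholly under a region, and none of the 7 seeds was shared.
mmu-miR-493-5p: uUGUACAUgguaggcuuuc
mmu-miR-493-3p: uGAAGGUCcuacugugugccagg
mmu-miR-337-5p: cGGCGUCAugcaggaguugauu
mmu-miR-337-3p: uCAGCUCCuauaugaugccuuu
mmu-miR-432: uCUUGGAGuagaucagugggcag
mmu-miR-675-3p: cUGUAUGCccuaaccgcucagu
mmu-miR-675-5p: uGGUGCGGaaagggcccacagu

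H19, the maternally expressed RNA of the chromosome 7 cluster, and the strongest region of its control region window were called in the early libraries alone. This region at chr7:149766201-149766867, 2.31 kb before the H19 start, had 0.694 CPM (0.435 to 1.05, 22 tags) at D0, 0.463 CPM (0.253 to 0.777, 14 tags) at D3 and 0.514 CPM (0.257 to 0.920, 11 tags) in D6T-. The 3 counting intervals overlapped on CPM, and none of the other 6 libraries called it. Relative to the genome-wide shift D3 was 0.297 times D0 (log2 -1.75, interval -2.83 to -0.72) and D6T- 0.192 times (log2 -2.38, interval -3.57 to -1.28), so that on this scale both lay below D0 by more than counting error. In iPSCs it was at most 0.542 times the D0 level (0.455 relative to the genome-wide shift), with a counting interval on CPM from 0.229 to 1.19. D12S+ called a neighbouring region 3.72 kb before H19 with 10 tags. The control region window, 4.5 to 1.5 kb before H19, held 3 CTCF core matches, 2 of them in called regions, and 6 ZFP57 matches, 3 of them in called regions. Because the CTCF pattern was taken from the sites of this control region, its presence here is no independent result. The window spans 3001 bp, so these counts cannot be set against the 3.16% of 300 bp summit windows with a CTCF core match genome-wide.

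Beyond H19 lie enhancers that the cluster shares. The window searched for them, 6 to 12 kb past the H19 start, overlapped 4 regions, called at D0 and in no other library. Of these, 3 had their summit inside it (13, 14 and 14 tags), and that with 21 tags had its summit 5.96 kb past the start, just outside. The strongest region on this side, 17.5 kb past the H19 start, had 0.883 CPM (0.587 to 1.28, 28 tags) at D0 alone. At D3 and in iPSCs it was at most 0.375 and 0.426 times the D0 level, with intervals of 0.162 to 0.795 and 0.185 to 0.904. Both bounds lay further from D0 relative to the genome-wide shift, at 0.167 and 0.357. Of the 22 regions between the control region and Igf2, D0 called 19 and D3 called 3, against 36.4% and 48.4% of all regions in the genome. In this stretch 20 of the 22 were called in 1 library only, so that pooling regions over libraries raises the D0 count and lowers the others.

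The strongest region of the locus lay between H19 and Igf2 and had its highest values in D16S+ and iPSCs. At chr7:149796602-149797622, intergenic and 33.1 kb before the H19 start, no region was called at D0, D6T-, D9T- or in the day 6 siRNA libraries. D3 had 0.430 CPM (0.229 to 0.735, 13 tags), D12S+ 0.738 (0.393 to 1.26, 13 tags), D16S+ 1.46 (0.995 to 2.08, 31 tags) and iPSCs 1.58 (1.14 to 2.14, 42 tags). In iPSCs it stood at the 95.3rd percentile of the library's regions, and it was at least 4.56-fold above the D0 limit (interval 2.31 to 9.81), or at least 3.82-fold relative to the genome-wide shift. D16S+ and iPSCs differed 1.08-fold (0.662 to 1.78), within counting error, and 2.03-fold relative to the shift. Its 300 bp window, printed above, held no match to any of the 4 motifs.

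Igf2, a growth factor gene expressed from the paternal chromosome, has several promoters, and regions within the gene recurred through the time course. The region at chr7:149844261-149845934, 7.35 kb past the outermost annotated start and in an exon, had 0.893 CPM (27 tags) at D3, 1.08 (0.682 to 1.61) in D6T-, 0.681 (0.311 to 1.29) in D9T-, 0.661 (0.361 to 1.11) in D16S+, 0.677 (0.401 to 1.07) in iPSCs and 0.505 (0.252 to 0.904) with siNT. Its counting intervals overlapped in all 6 libraries, and D0 did not call it. The iPSC level was at least 1.95-fold above the D0 limit (interval 0.873 to 4.57), or at least 1.64-fold relative to the genome-wide shift. A region 5.96 kb past that start (chr7:149846288-149847024), in an exon of the antisense transcript Igf2as, had 17 tags at D0, 20 at D3, 12 in D16S+ and 17 in iPSCs. There iPSCs and D0 differed 1.19-fold (0.573 to 2.49), and 1.00-fold relative to the shift. ATAC-Seq carries no strand, so that Igf2 and Igf2as cannot be told apart.

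The comparison of iPSCs with D0 asks how the loci ended relative to where they began. Of the 101 regions 58 were called in either library, 49 in D0 alone, 6 in iPSCs alone and 3 in both. Over the whole genome 112701 regions were called in either library, 76983 of them at D0 and 57025 in iPSCs. At the Igf2-H19 locus 30 regions are in the set only through their D0 call, which raises the D0 count. With an uncalled region set to the lowest called value, 1 of the 58 was at least 2-fold higher in iPSCs, the region between H19 and Igf2, and 6 were at least 2-fold lower. Genome-wide 9.72% of 112701 regions were higher and 10.5% were lower by this measure.

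The comparison of D6 siH3.3 with D6 siNT asks whether depletion of H3.3 at the beginning of reprogramming changed accessibility at day 6. The paper describes the knockdown as transient and limited to the early stage, and the peak files do not measure it. Of all regions 20.6% were called with siH3.3 and 20.2% with siNT. At the Dlk1-Mirg locus 9 regions (18.4%) were called with siH3.3 and 6 (12.2%) with siNT, and at the Igf2-H19 locus 0 and 1. Of the 11 called in either library 5 were called in both, and none was at least 2-fold higher or lower, against 2.21% and 0.911% of 52919 regions genome-wide. The region past Mirg differed 1.13-fold (0.660 to 1.93), that between Rian and Mirg 1.17-fold (0.626 to 2.18) and the Rian region 23.2 kb past its start 1.53-fold (0.889 to 2.65). Each interval includes a ratio of 1. The Meg3 exonic region was called with siH3.3 (11 tags) and not with siNT, which left a ratio of at least 1.43 with an interval of 0.537 to 3.89. D6T-, the untransfected day 6 library of the same sort, had higher CPM than siNT at the region past Mirg (3.38-fold, 2.25 to 5.23), but 1.18-fold relative to the genome-wide shift.

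The sequences of the 101 regions were compared with the genome's over 300 bp windows. CTCF core matches lay in 4 (3.96%, genome 3.16%), ZFP57 matches in 8 (7.92%, genome 5.92%), octamer matches in 2 (1.98%, genome 2.29%) and AP-1 matches in 17 (16.8%, genome 28.1%). Median GC content was 54.7% at the Dlk1-Mirg locus and 51.6% at the Igf2-H19 locus, against 49.7% genome-wide. Summits were intergenic in 63 regions, exonic in 24 and intronic in 14. The AP-1 matches included 2 in the Rian region 23.2 kb past its start and 2 in the region past Mirg, and the latter are in capitals in the window printed for it.

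Among other imprinted genes, promoters were called more often than among all genes in every library. Of 48 listed genes 45 were in the annotation, and 26 (57.8%) had a region within 3 kb upstream of a start at D0, 39 (86.7%) at D3, 35 (77.8%) in D12S+ and 36 (80.0%) in iPSCs. For all genes the shares were 41.9%, 50.2%, 45.1% and 45.9%. These cover all 37310 annotated entries of every type, short RNAs included. No set of genes matched in type was compared, so the excess is not shown to be a trait of imprinted genes. Of the 6 genes described here, 3 had a promoter region at D0 and 2 in iPSCs (Dlk1 and Igf2). The H19 value at D0 was that of the region in its control region window. Peg3, a paternally expressed zinc finger gene, had 0.631 CPM at D0, 5.39 at D3 and 1.05 in iPSCs. Snrpn, which marks another imprinted cluster, was called at D3, D6T-, D12S+ and D16S+ (0.463 to 0.850 CPM) and, like Meg3, not in iPSCs. Of 8 genes for the maintenance of imprints, Zfp57, Trim28 and Ctcf had a promoter region in all 9 libraries. Zfp57, whose product binds the hexamer above, had 0.599 CPM at D0, 2.34 in D6T- and 1.28 in iPSCs.

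Markers of cell identity were checked the same way. All 8 pluripotency markers had a promoter region in D12S+, D16S+ and iPSCs, against 2 at D0 and 1 to 4 in the other libraries, and Nanog, Zfp42, Dppa5a and Tdgf1 were called in those 3 libraries alone. The 2 at D0 were Pou5f1 and Esrrb. Pou5f1, the Oct4 gene, was called in all 9 libraries, with 13.1 CPM at D0 and 14.4 in iPSCs, and did not separate them. Its values ran from 9.37 CPM (siH3.3) to 26.3 CPM (D16S+). The window lies upstream of any annotated start and can cover exons, and tags from the Oct4 retrovirus were not told apart from those of the gene. These values are therefore not shown to be those of the Oct4 promoter itself. Of the 8 fibroblast markers 7 were called at D0, 7 in D16S+ and 5 in iPSCs. Epithelial markers went from 0 of 5 at D0 to 5 of 5 in D16S+ and iPSCs. Of other lineages, 0 to 4 of 4 endothelial, 1 or 2 of 3 blood and 0 or 1 of 3 muscle markers were called per library. The part of cell composition in the differences at both loci was not tested.

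Genes whose promoter value ran most like that of Meg3 over the 9 libraries were sought among 16076 genes with a promoter region in at least 5. Mir1906-1, which lies within Meg3 and shares its regions, had a Pearson r of 1.000 by construction. It was followed by 5730403B10Rik (r = 0.977), Poc5 (0.977), Hspa12b (0.973) and Fbxo32 (0.966). In all, 333 genes exceeded 0.9. For H19 a promoter region was called in 3 libraries (D0, D3 and D6T-). At D0 and D6T- its value was that of the region in the control region window, 2.31 kb before the start. At D3 it was that of the exonic region 1.02 kb past the start, so the H19 profile mixes 2 regions. The leading genes were a copy of the multicopy U1 small nuclear RNA (0.933), Plscr2 (0.894), Gm16178 (0.844), Gm16094 (0.843) and Krt19 (0.840), and 1 gene exceeded 0.9. These correlations are over 9 libraries that differ in depth and in genome-wide CPM, are given as a description, and rest on uncalled promoters set to each library's lowest called value.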

How the data were processed

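Per the file headers and the study's methods, the authors mapped 51 bp tags to mm9 with STAR (unique matches, up to 2 mismatches), removed duplicates with Picard and mitochondrial reads, and called each library alone with MACS2 2.1.0.20151222 (tags extended to 200 bp, no control, no local lambda, q-value threshold 0.05). The summit pileup is a signal value that the authors deposited without scaling for depth. Deposited fold enrichment, the ratio of pileup to the genome-wide mean, and the −log10 p-values and q-values of the same files served as alternatives and for ranking.

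From these files pileup was divided by total tags and multiplied by 1000000, overlapping calls of 1 library and then of all libraries were joined, and values, intervals and motif matches were computed with Python 3.11.15 (numpy 2.4.6, pandas 2.3.3, scipy 1.17.1, matplotlib 3.10.9). Groups came from the sample labels. The functions passed 6 of 6 tests on simulated data. The members and the gene and motif lists were chosen with earlier results of these data known. Named regions were those at promoters or control elements of the 6 genes, those called in at least 7 libraries and the 5 strongest of each locus, and the genes most like Meg3 and H19 were the top 5. Regions over microRNA hairpins, the intronic Meg3 region called in iPSCs and the comparison of iPSCs with D16S+ were added after their values were seen. Alternatives covered the q-value limit, equal numbers of regions, flanks, joining distance, scale, uncalled values, likeness and motif window.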

Additional observations from a re-analysis of the deposited data

How the results depend on the processing

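No paired analysis was possible because each condition had 1 library, and no replicate could be left out. Restricting every library to the same number of regions, the strongest by q-value, left 14 regions at the Dlk1-Mirg locus (5 at D0, 5 at D3, 7 in D16S+ and 2 in iPSCs) and 8 at the Igf2-H19 locus (5 at D0, 1 at D3, 2 in D16S+ and 3 in iPSCs). This setting keeps fewer regions by its own construction, and 13 of the 20 counts by locus and library differed from those reported by more than 1.5 times. A −log10 q of at least 3 left 3 regions in iPSCs at the Dlk1-Mirg locus, and a flank of 50 kb gave 5 in D16S+ at the Igf2-H19 locus. These settings changed 2 and 6 of the 20 counts by more than that. Flanks of 10 kb and a joining distance of 300 bp kept all 20 counts within 1.5 times. Scaling by the median of the regions called in all libraries reversed the log2 ratio of D6T- to D0 past Mirg, to -0.12, and moved that in Rian to 0.06, that of D3 to D0 in Meg3 to 0.14 and those of D16S+ to D0 in the IG-DMR window to 0.13 and 0.20. The other 8 log2 ratios stayed within their intervals under this scaling, as did all 13 with deposited fold enrichment or the wider joining, and all 6 against a library without a call with its limit set 1 tag lower. Spearman correlation kept 2 of 5 genes for Meg3 and 3 of 5 for H19, and the 7 time-course libraries alone also kept 2 and 3. In 100 bp windows the motif shares were 0.990% for the CTCF core, 2.97% for ZFP57, 0% for the octamer and 8.91% for AP-1, as a shorter window holds fewer letters. Regions of the Dlk1-Mirg locus called at D0 had a median of 16.0 tags, close to the lowest value that could be called, so that depth limits what a missing call shows.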
